A study of Danio rerio with 12 samples.

Results

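The lens crystallin genes were followed in RNA-Seq libraries of whole zebrafish larvae with and without a functional *mia40a* gene. A gene was taken as a member when a supplementary table of the study gave it a symbol of the alpha (*cryaa*, *cryab*), beta (*cryba*, *crybb*) or gamma (*cryg*) crystallin families. The rule found 47 genes among the 31953 of the 5 dpf (days post fertilization) data, and 45 of them among the 20963 genes of the 8 dpf data. They were 1 alpha gene, 10 beta genes and 36 gamma genes, and 30 of the gamma genes belonged to the gamma M family, 21 of them under *crygm2d* symbols. The rule drew on transcript calls for part of the list. The study's own 8 dpf RNA-Seq calls were the only source for 15 members, so the 8 dpf differences of these 15 are a description of how they were chosen. In the same way *crygm7* was named by the 5 dpf calls alone. The other members tested at 8 dpf, 30 in number, were named by a proteomic table, an expression matrix or the 5 dpf calls. Some of the proteomic tables list proteins that changed between Mut and WT, so these too can choose by a difference. The 8 dpf calls named 41 members in all, so most of these 30 were on that list as well.

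The larvae were of the AB line, from an in-cross of heterozygous carriers, and were genotyped before pooling. Mutants (Mut) were homozygous for the *mia40a* allele that the labels write as *waw1*, and wild-type larvae (WT) were their siblings. Each age had 3 Mut and 3 WT libraries, each from a pool of 5 whole larvae of one clutch. Larvae collected at 8 dpf had received food since 5 dpf. The study nonetheless named starvation of the 8 dpf mutants as a possible bias and centred its further work on 5 dpf. The part of starvation in the 8 dpf differences was not tested. The sources do not state whether the pools of a group came from separate clutches, so p-values measure the spread between these pools, which may in part be technical. Since whole larvae were sequenced, fewer lens cells and less RNA per lens cell cannot be told apart. *mia40a* (*chchd4a*) itself read 82, 91 and 92 in the 5 dpf WT pools, 264, 262 and 261 in the Mut pools, and had overlapping groups at 8 dpf. A small frameshift deletion does not remove the transcript, so these values do not check the genotype.

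Crystallins are the proteins that fill the fibre cells of the lens and give it its transparency and refractive power. The alpha crystallins are small heat shock proteins that hold damaged proteins in solution. The beta and gamma crystallins share one fold and act mainly as packing proteins. In fishes the gamma family holds an expanded M branch, named for its high methionine content, which is abundant in their dense and hard lenses. The values below are the authors' normalized read counts, rounded to whole numbers. They summed to between 16997847 and 18177809 per library at 5 dpf and to between 22595423 and 25417541 at 8 dpf, and read depth before normalization is not known from them. Reads that matched several genes had been left out by the authors, so for close paralogs such as the *crygm2d* genes a value counts only the reads that fit 1 gene. Levels were therefore compared between libraries, not between genes. The 2 ages were normalized separately, so levels were not compared across ages either.

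Other genes of the lens were present. Of 25 lens genes outside the crystallin families tested at 5 dpf, *mipa*, a lens water channel, had WT values of 1003, 1318 and 1848, and *lim2.4*, a fibre cell membrane protein, of 653, 837 and 1143.

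At 5 dpf the crystallin genes did not differ as a group between Mut and WT, with a few exceptions among the gamma genes. Of 43 members with a combined mean of at least 5, limma on log2(value + 1) called 1 higher and 1 lower in Mut (a call needs an adjusted p below 0.05 together with a change of 0.9 or more on the log2 scale). The study's own 5 dpf calls had named both genes, *crygm7* and *crygn1*. Among all 22521 genes tested, 0.608% were called higher and 0.546% lower. The median log2 fold change of the 43 members was 0.01, with 22 above 0 and 21 below, and that of all genes tested was -0.0012. The remaining 4 members, *crygm1*, *crygm2a*, *crygm4* and *crygs4*, had values of 0 to 4 in every library and were not tested. *crygs4*, the only gamma S member, read 2, 0 and 1 in WT and 3, 1 and 1 in Mut.

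**Figure D1:**
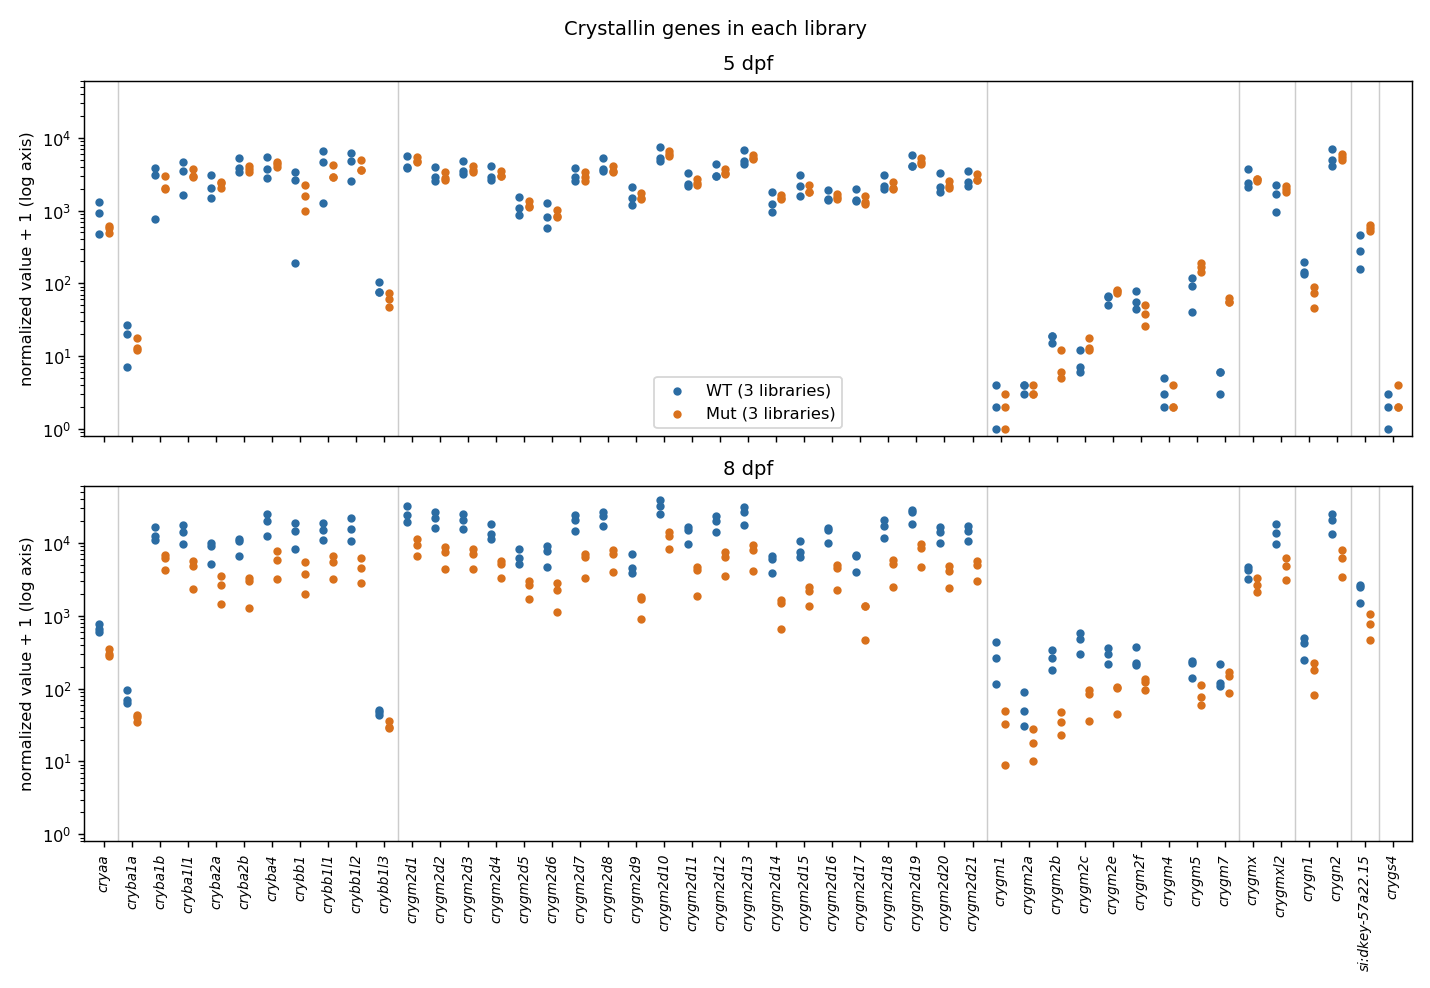
Normalized value + 1 (log axis) of each crystallin gene in each library at 5 dpf (top) and 8 dpf (bottom), with WT in blue and Mut in orange and 3 libraries each, ordered by class. WT and Mut points overlap for 36 of 43 tested genes at 5 dpf and for 2 of 45 at 8 dpf, where the 45 include 15 chosen by that contrast. Among all genes tested, every Mut library was below every WT library in 11.7% at 5 dpf and 17.3% at 8 dpf. It was above in 12.9% and 15.3%.

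*cryaa*, the alpha A crystallin and the only alpha member, had 5 dpf values of 469, 935 and 1305 in WT and of 570, 494 and 618 in Mut. The Mut pools fell between the lowest WT pool and the other two. The log2 fold change was -0.57 (standard error 0.29, n = 3 and 3, limma adjusted p = 0.30), so *cryaa* did not pass the test. Without WT1 it was -0.98 with an adjusted p of 0.0076 from limma.

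None of the 10 beta crystallins passed the test at 5 dpf, and their log2 fold changes ran from -0.50 to 0.36. *crybb1l2*, the beta gene with the highest mean, had values of 2508, 4793 and 6168 in WT and of 3615, 3641 and 4905 in Mut. The groups overlapped, and the 95% interval of the difference was -0.66 to 0.52. *crybb1* had the highest estimate, 0.36 (standard error 0.87), from values of 187, 2591 and 3432 in WT and of 990, 1583 and 2246 in Mut. Its estimate turned on WT1: without that pool it was -0.97 (limma adjusted p = 0.095). *crybb1l3* had the lowest estimate, -0.50 (standard error 0.20, limma adjusted p = 0.20), from values of 75, 74 and 102 in WT and of 46, 60 and 72 in Mut. *cryba4* read 2831, 3747 and 5498 in WT and 4340, 3897 and 4689 in Mut. *cryba2b* read 3331, 3884 and 5224 in WT and 3695, 3372 and 4108 in Mut. Both sets overlapped. *cryba1a* was low, at 6, 26 and 19 in WT and 11, 12 and 17 in Mut.

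The 21 *crygm2d* genes were the most even class at 5 dpf. Their log2 fold changes lay between -0.20 (*crygm2d15*) and 0.24 (*crygm2d14*), WT and Mut overlapped for all 21, and the lowest adjusted p from limma was 0.52. The 95% intervals of the 21 differences lay within -0.63 and 0.65. *crygm2d10*, with the highest mean, had values of 4791, 5281 and 7386 in WT and of 5530, 6021 and 6532 in Mut. *crygm2d15* had 1600, 2200 and 3070 in WT and 1793, 1793 and 2206 in Mut. *crygm2d14* had 948, 1230 and 1818 in WT and 1473, 1427 and 1652 in Mut. In each of these genes the Mut pools lay inside the WT range.

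The other gamma M genes held wider differences, up and down. At 5 dpf *crygm7* read 5, 2 and 5 in WT and 55, 61 and 55 in Mut. Every Mut pool was above every WT pool, and the log2 fold change was 3.60. This contrast had chosen the gene, and the WT values are close to 0. *crygm5* read 39, 91 and 119 in WT and 144, 167 and 192 in Mut. The groups did not overlap, but the log2 fold change of 1.14 (standard error 0.33) had an adjusted p of 0.075 from limma. Without WT3 it was 1.47, with an adjusted p of 0.017 from limma. *crygm2b* read 18, 14 and 18 in WT and 5, 4 and 11 in Mut (log2 fold change -1.30, standard error 0.39, limma adjusted p = 0.084). *crygm2c* read 5, 6 and 11 in WT and 11, 17 and 12 in Mut, with a log2 fold change of 0.83 that lay just outside the fold threshold. The 5 dpf calls of the study had named *crygm7* and *crygm5*. Of the other 4 tested genes of the class, 1 (*crygm2e*) had every Mut pool above every WT pool, a pattern of 12.9% of all genes tested, and 1 (*crygm2b*) had the opposite, against 11.7%.

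The gamma N, MX and remaining gamma genes split. Gamma N crystallins carry features of both the beta and the gamma families. *crygn1* fell at 5 dpf, with values of 134, 141 and 193 in WT and of 45, 73 and 89 in Mut. All Mut pools were below all WT pools, and the log2 fold change of -1.20 (standard error 0.24, limma adjusted p = 0.017) passed both thresholds. The study's 5 dpf calls had already listed *crygn1*, beside its proteomic tables, so this call repeats one made on the same libraries. Without Mut2 the call was lost (-1.27, limma adjusted p = 0.059). *crygn2*, the other gamma N gene, read 4131, 5012 and 6967 in WT and 5465, 4941 and 5894 in Mut, a log2 fold change of 0.05. *crygmx* read 2096, 2406 and 3727 in WT and 2674, 2513 and 2729 in Mut. *crygmxl2* read 945, 1704 and 2212 in WT and 2004, 1772 and 2197 in Mut, and neither MX gene passed. *si:dkey-57a22.15*, a gene that the study's tables also list as a *CRYGB* counterpart, read 157, 274 and 461 in WT and 583, 529 and 623 in Mut. Its groups did not overlap, but the log2 fold change of 1.09, the nearest inside the fold threshold, had an adjusted p of 0.058 from limma. Without WT3 it was 1.47 (limma adjusted p = 0.0020).

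The WT pools at 5 dpf stood apart from each other. WT1 was the lowest WT pool for 38 of the 43 members, and WT3 the highest for 40. Against the mean of the other 2 WT pools, WT1 was lower by a median of -1.21 on the log2 scale over the beta genes and of -0.38 over the *crygm2d* genes, and the median over all genes was 0.01. Of the 25 lens genes outside the crystallins, 17 had WT1 as the lowest WT pool, with a median of -0.24 for the same measure. *bfsp1*, which encodes the lens filament protein filensin, read 10, 102 and 135 in WT, and *bfsp2*, which encodes its partner phakinin, read 238, 568 and 713. The Mut pools of *bfsp1* were at 58, 55 and 86. *grifin*, a galectin-related lens protein, did not share the low WT1, at 266, 208 and 302 in WT, and neither did the transcription factor *mafb*, at 623, 622 and 625. With each library left out in turn, the median log2 fold change of the 43 members ran from -0.18 (without WT1) to 0.22 (without WT3).

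At 8 dpf the crystallin genes were lower in Mut almost throughout. All 45 members had a log2 fold change below 0, and the median was -1.74, a 3.34-fold lower level in Mut, where the median of all genes tested was 0.01. With batch as a term, limma called 39 of the 45 lower and 0 higher at both thresholds, and 44 had an unadjusted p under 0.05, which 20.8% of all genes tested had. The call rates among all 20963 genes were 0.701% lower and 0.205% higher. The 8 dpf calls of the study themselves chose 15 of these genes, so nothing is read from their share. Among the 30 members with another source, 24 were called lower and the median was -1.78. Most of these 30 were also among the 41 members that the study's 8 dpf calls named. For *crygm5* the only other source was the 5 dpf calls. For *crygm2f* it was the study's list of proteins changed at 8 dpf. The 24 are therefore not all free of the choice. Every Mut library was below every WT library for 28 of these 30, against 17.3% of all genes tested. The batch correction described below equalized the batch means. Where WT3 and Mut3 lie against the other libraries is thus partly set by it. This holds wherever groups at 8 dpf are said to overlap or not.

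The count of calls rested on few libraries, and the sizes also moved. Without Mut2 limma called 0 of the 45 (44 at an unadjusted p under 0.05), without WT2 it called 3, without Mut1 5 and without WT1 25. The corresponding median log2 fold changes were -1.88, -1.70, -1.38 and -1.53. Without WT3, as without Mut3, limma called 38 and the median was -2.22, while the pair of WT3 and Mut3 alone had a median of -0.81. Calls of all genes lower in Mut also fell, from 147 to 27 without Mut2, 82 without WT2, 23 without Mut1 and 135 without WT1. Without WT3 and without Mut3 they were 77 and 78.

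**Figure D2:**
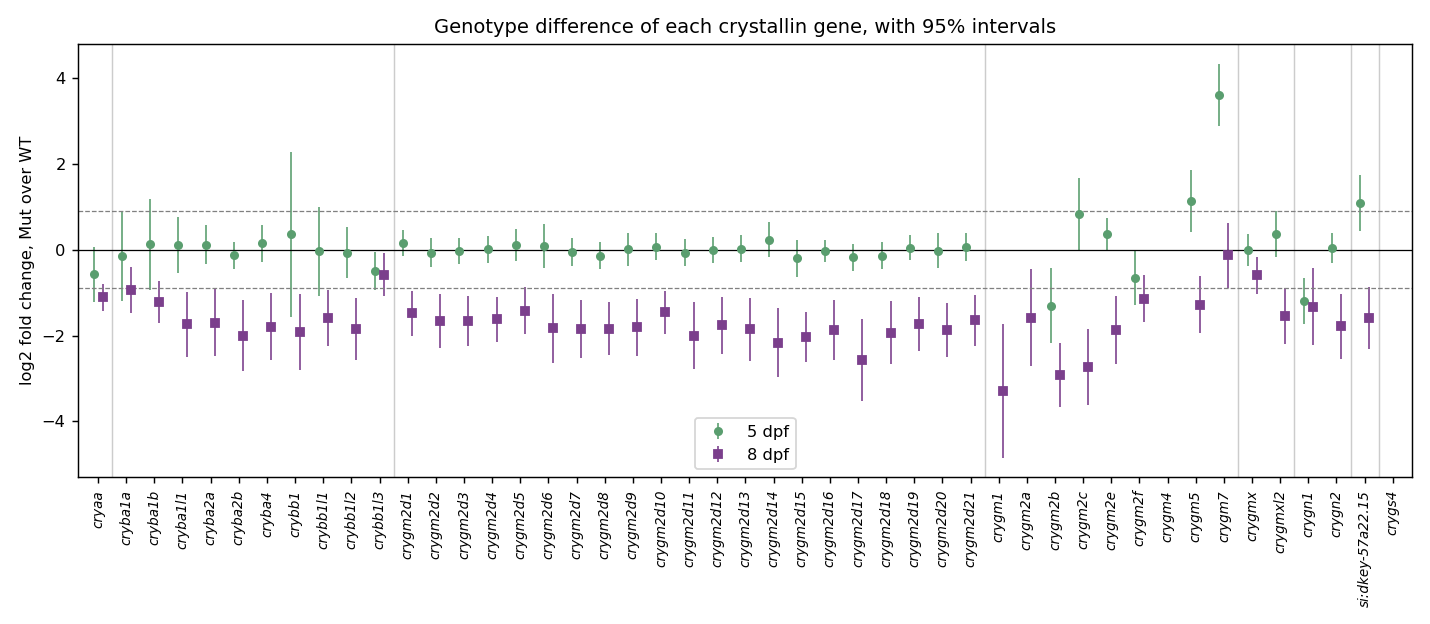
Log2 fold change of Mut over WT for each tested crystallin gene at 5 dpf (circles) and 8 dpf (squares), from limma with 95% intervals as bars, and the fold threshold of 0.9 as dashed lines. At 5 dpf the 21 *crygm2d* genes sit between -0.20 and 0.24, and at 8 dpf between -2.57 and -1.43.

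*cryaa* fell at 8 dpf. Its values were 648, 779 and 589 in WT and 277, 301 and 352 in Mut. The pools of the genotypes did not overlap, and the log2 fold change was -1.11 (standard error 0.13, limma adjusted p = 0.011).

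In the beta family 8 of 10 genes were called lower at 8 dpf, with log2 fold changes of the whole family between -2.00 and -0.58. Of the 8, *cryba1b*, *cryba2a*, *crybb1* and *crybb1l2* were members through this contrast alone. Without them 4 of 6 were called lower, against 0.701% of all genes tested. *cryba2b* had the lowest estimate. It read 11266, 10748 and 6604 in WT and 1276, 2975 and 3273 in Mut (log2 fold change -2.00, standard error 0.36, limma adjusted p = 0.024). *cryba4*, the highest in mean value, read 24627, 19822 and 12530 in WT and 3231, 5866 and 7736 in Mut, a log2 fold change of -1.79. In both genes the highest Mut pool was below the lowest WT pool. *crybb1*, chosen by this contrast, read 18724, 14450 and 8380 in WT and 2022, 3775 and 5464 in Mut. *crybb1l2*, chosen likewise, read 22169, 15458 and 10767 in WT and 2853, 4475 and 6192 in Mut.

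Of the beta genes, 2 did not pass, both with small values. *cryba1a* read 95, 63 and 69 in WT and 34, 40 and 42 in Mut, and its log2 fold change of -0.93 (standard error 0.23, limma adjusted p = 0.063) was the nearest inside the fold threshold. *crybb1l3* read 43, 46 and 50 in WT and 29, 35 and 28 in Mut (log2 fold change -0.58, standard error 0.22, limma adjusted p = 0.18). Both had all Mut pools below all WT pools. On the GRCz12tu assembly *cryba1a* and *crybb1l3* are neighbours.

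All 21 *crygm2d* genes were called lower at 8 dpf, with a median log2 fold change of -1.83 and adjusted p-values from limma of 0.012 to 0.029. Of the 21, 6 were members through this contrast alone. Without them 15 of 15 were called lower, against 0.701% of all genes tested. *crygm2d10*, the highest in mean value, read 38394, 31815 and 25059 in WT and 8336, 12335 and 14253 in Mut. Its log2 fold change was -1.46 (standard error 0.22, limma adjusted p = 0.016). *crygm2d17* had the largest fall of the class, from 6834, 6634 and 3949 in WT to 460, 1364 and 1361 in Mut (log2 fold change -2.57, standard error 0.41, limma adjusted p = 0.019). *crygm2d5*, chosen by this contrast, had the smallest, -1.43, from 8346, 6166 and 5137 in WT and 1687, 2689 and 2997 in Mut. *crygm2d14* read 6703, 5970 and 3811 in WT and 665, 1498 and 1669 in Mut, and *crygm2d15* read 10699, 7451 and 6358 in WT and 1353, 2220 and 2453 in Mut. No *crygm2d* gene had overlapping groups. Of all genes tested, 17.3% had every Mut library below every WT library.

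The other gamma M genes held both the largest and the smallest differences. *crygm1*, which had values of 0 to 3 at 5 dpf, at 8 dpf read 441, 266 and 116 in WT and 8, 32 and 49 in Mut, a log2 fold change of -3.29. *crygm2b* read 343, 265 and 180 in WT and 22, 34 and 46 in Mut, and *crygm2c* read 580, 479 and 302 in WT and 35, 84 and 94 in Mut. These 3 were chosen by the contrast and have no test here. *crygm5* read 237, 222 and 138 in WT and 59, 75 and 112 in Mut (log2 fold change -1.28, standard error 0.29, limma adjusted p = 0.047). Its only sources were the study's 5 dpf and 8 dpf calls, so this difference is a description too. *crygm2a* read 88, 48 and 30 in WT and 9, 17 and 27 in Mut, without overlap, but its log2 fold change of -1.58 (standard error 0.49) had an adjusted p of 0.11 from limma. *crygm7* read 219, 118 and 109 in WT and 86, 148 and 169 in Mut. Its groups overlapped, and its 95% interval was -0.89 to 0.63.

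Of the remaining gamma genes, *crygmxl2* fell, from 18096, 13540 and 9736 in WT to 3095, 4898 and 6309 in Mut (log2 fold change -1.55, standard error 0.29, limma adjusted p = 0.027). *crygmx*, its neighbour on GRCz12tu, read 4651, 4310 and 3189 in WT and 2101, 2627 and 3323 in Mut. These groups overlapped, and the log2 fold change of -0.60 (standard error 0.19, limma adjusted p = 0.12) was the nearest outside the fold threshold. *crygn1* read 497, 418 and 249 in WT and 81, 179 and 223 in Mut, without overlap (log2 fold change -1.33, standard error 0.39, limma adjusted p = 0.098). *crygn2* read 24985, 20528 and 13259 in WT and 3379, 6236 and 7903 in Mut. *si:dkey-57a22.15* read 2504, 2663 and 1477 in WT and 460, 760 and 1043 in Mut. The contrast had chosen both *crygn2* and *si:dkey-57a22.15*.

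The 8 dpf pools were processed at different times, per the study's methods, and the authors removed this batch effect. The deposited values themselves showed which libraries form the smaller batch. For WT3 with Mut3 the batch means were equal to a median of 0.0056 on the log2 scale, and for any other Mut and WT pair the difference was at least 0.058. In the larger batch (WT1, WT2, Mut1 and Mut2) all 45 members were lower in Mut, with a median log2 fold change of -2.22. In the smaller batch (Mut3 against WT3, with no replicate) 43 of 45 were lower, with a median of -0.81, and the difference was nearer to 0 in 43 of 45 genes. The exceptions above 0 in the smaller batch were *crygm7* (0.63) and *crygmx* (0.06). *crybb1l3* (-0.47 and -0.81) was 1 of the 2 genes in which the smaller batch had the larger difference, and *crygm7* was the other. Since batch means were equalized, WT3 was the lowest WT library for 42 members and Mut3 the highest Mut library for 42. Only the difference between Mut3 and WT3 carries information.

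**Figure D3:**
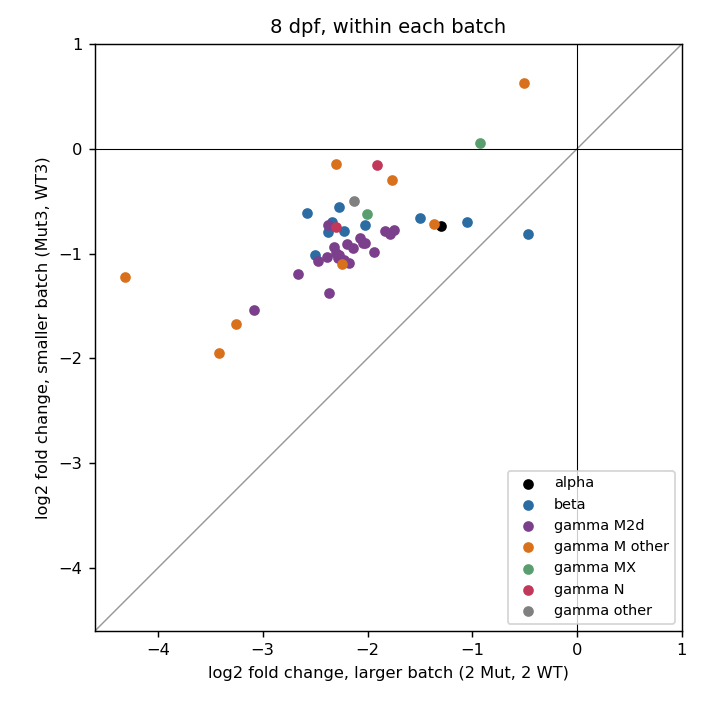
Log2 fold change of Mut over WT at 8 dpf for each of 45 crystallin genes in the larger batch (x axis, 2 Mut and 2 WT pools) and in the smaller batch (y axis, Mut3 and WT3), coloured by class, with the line of equality in grey. Most genes lie above the line and below 0, with medians of -2.22 and -0.81.

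Across the 45 genes the differences of both batches were related (Pearson's r = 0.67, Spearman's rho = 0.59). This is a description, since genes are not independent replicates, close paralogs are among them and the batch correction is shared. Over the *crygm2d* genes alone, the log2 fold changes ran from -3.09 to -1.75 in the larger batch and from -1.54 to -0.73 in the smaller one.

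The share of the summed values taken by the members, 47 at 5 dpf and 45 at 8 dpf, was compared between libraries. It counts only reads that fit 1 gene, and close paralogs hold most of it, so it is not the full size of the class. At 5 dpf it was 0.408%, 0.548% and 0.765% in WT and 0.533%, 0.503% and 0.606% in Mut. The WT mean was 0.573% ± 0.180 and the Mut mean 0.547% ± 0.0530 (SD, n = 3 and 3), with p = 0.80 in a two-sided exact permutation test, whose smallest possible p here is 0.10. At 8 dpf the share was 2.38%, 2.22% and 1.49% in WT and 0.394%, 0.658% and 0.784% in Mut. The highest Mut share was below the lowest WT share, and the WT mean was 3.31 times the Mut mean, which is a description because the members were chosen in part on these differences.

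**Figure D4:**
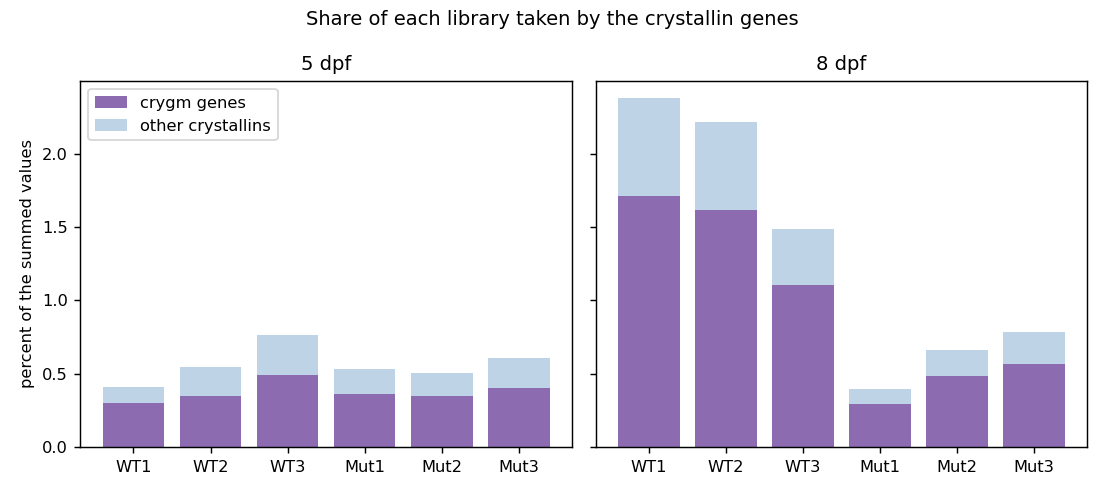
Percent of the summed normalized values of each library taken by the *crygm* genes (dark, 32 at 5 dpf and 31 at 8 dpf) and the other crystallins (light, 15 and 14). At 8 dpf the WT bars reach 1.49% to 2.38% and the Mut bars 0.394% to 0.784%.

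The balance within the class was compared by the log2 ratio of the summed *crygm* genes to the other members, 32 genes (with the MX genes) to 15 at 5 dpf and 31 to 14 at 8 dpf. At 5 dpf the ratio was 1.51, 0.79 and 0.84 in WT and 1.04, 1.15 and 0.98 in Mut (two-sided exact permutation test, p = 1.00). At 8 dpf it was 1.36, 1.43 and 1.54 in WT and 1.502, 1.46 and 1.35 in Mut, and the means differed by -0.01. The sums are carried by the genes with the highest values. With the mean of the log2 values over genes in place of the sum, so that low genes weigh as much as high ones, the 8 dpf difference was -0.27, with all Mut pools below all WT pools. This difference is a description, since members chosen by the 8 dpf calls enter it, *crygm1*, *crygm2b* and *crygm2c* with the largest falls among them. Without the 15 chosen members (22 *crygm* genes against 8 others, a choice made after the data were seen) it was -0.28, again without overlap (two-sided exact permutation test, p = 0.10, the smallest possible). Neither this test nor the lack of overlap takes the equalized batches of 8 dpf into account. The same mean at 5 dpf differed by 0.13 over all members, with overlap, and by 0.37 without the 15, with all Mut pools above all WT pools and the chosen *crygm7* included.

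The genotype differences of the 2 ages, taken from 2 separate limma fits, were set against each other. Each difference between the ages was tested against a standard error combined from the 2 fits. Of the 27 members tested at both ages that a source other than the transcript calls had named, 20 had a lower log2 fold change at 8 dpf than at 5 dpf at an adjusted p under 0.05, and 0 a higher one. Among all genes 6.15% were lower in this sense. The median difference was -1.82. *crygm2e* was higher in every Mut pool at 5 dpf (49, 63 and 67 in WT; 78, 79 and 72 in Mut) and lower in every Mut pool at 8 dpf (362, 295 and 220 in WT; 44, 105 and 102 in Mut). At 5 dpf the difference did not pass the test (95% interval -0.01 to 0.73, limma adjusted p = 0.26), and the gene was singled out after its values were seen. Its log2 fold changes of 0.36 and -1.86 differed by -2.23 (standard error 0.38, adjusted p = 0.0040 in the test between the ages). For *cryaa* (-0.57 and -1.11) and *crygn1* (-1.20 and -1.33) a difference between the ages was not shown. The adjusted p-values of the same test were 0.36 and 0.91.

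Many gamma M genes lie side by side. On GRCz12tu, a newer assembly than the GRCz10 of the files and used here only for gene order, 31 crystallin genes follow one another with no other protein-coding gene between them, and 28 of them are members, all 21 *crygm2d* genes included. The *crygm2d* genes form its middle, with *crygm2c*, *crygm2b*, *crygm2a* and *crygm2e* at one end and *crygm2f* and *crygm5* at the other. The genes at both ends had lower values and larger or similar standard errors: at 5 dpf their WT means were 7.33 to 83.0 and their standard errors 0.17 to 0.39, against WT means of 883 to 5819 and standard errors of 0.12 to 0.23 for the *crygm2d* genes. Their log2 fold changes at 5 dpf ran from -1.30 (*crygm2b*) to 1.14 (*crygm5*), where the *crygm2d* genes stayed within -0.20 and 0.24. The pairs *crybb1* and *cryba4*, and *crybb1l1* and *cryba1l1*, are also neighbours.

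**Figure D5:**
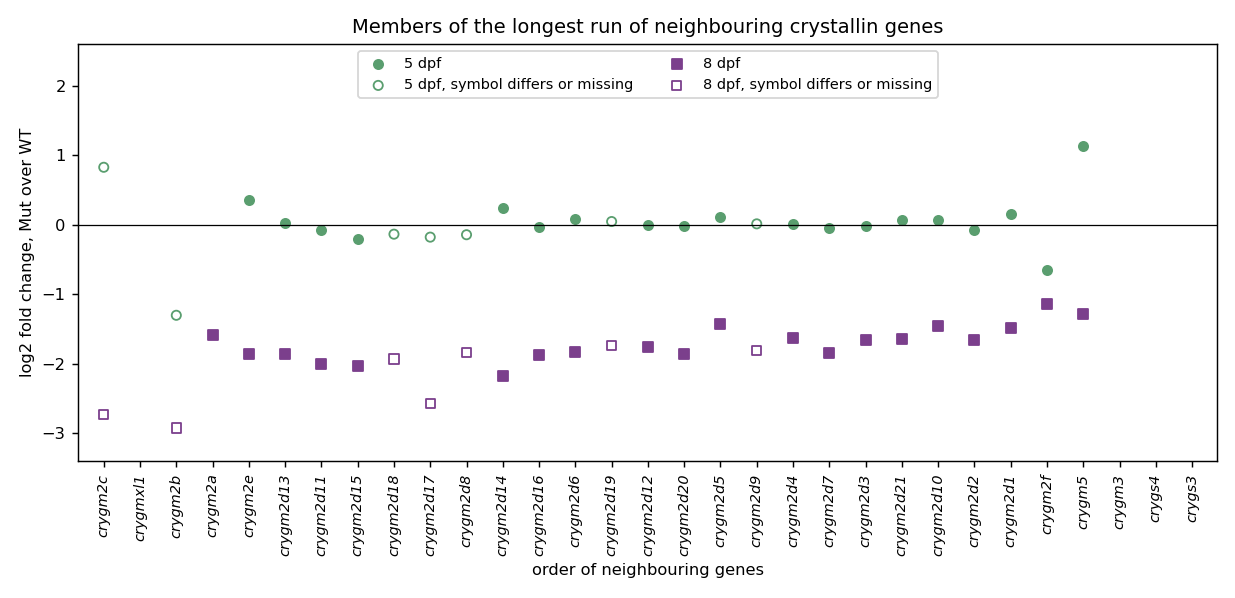
Log2 fold change of Mut over WT at 5 dpf (circles) and 8 dpf (squares) for the members of the long run of crystallin genes, in the order in which the genes follow each other, matched by symbol, with open symbols where the reference names the identifier otherwise or not at all. The 5 dpf points of the *crygm2d* genes stay between -0.20 and 0.24, and all 8 dpf points lie at -1.15 or below, where *crygm7* is not in the run and *crygmxl1*, *crygm3*, *crygs3* and *crygs4* have no points.

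Other genes of the lens were lower at 8 dpf in part. Of 25 lens genes outside the crystallin families tested at 5 dpf, 0 were called by limma at both thresholds, and their median log2 fold change was -0.04. At 8 dpf 7 of 20 were called lower and 0 higher, against 0.701% and 0.205% of all genes tested. The median of the 20 was -0.26, and 12 were below 0 and 8 above. The values are of whole larvae, so for a gene that other tissues also express they need not reflect the lens. The 7 were *mipa* and *mipb* (lens water channels), *lim2.3* and *lim2.4* (fibre cell membrane proteins), *bfsp2* (phakinin), *lgsn* (lengsin) and *dnase1l1l* (a DNase of the fibre cells). *bfsp2* read 3293, 2447 and 1780 in WT and 526, 960 and 1142 in Mut (log2 fold change -1.54, standard error 0.31, limma adjusted p = 0.033). *mipb* read 496, 492 and 476 in WT and 223, 244 and 244 in Mut, with log2 fold changes of -1.08 in the larger batch and -0.96 in the smaller. *pitx3*, a transcription factor of the early lens, read 381, 315 and 375 in WT and 367, 388 and 352 in Mut. *prox1a*, a factor of fibre differentiation that other tissues also express, had a log2 fold change of -0.47 with an adjusted p of 0.021 from limma, inside the p threshold but not the fold threshold. For 10 of the 20 the groups stood apart with Mut on the lower side, where 17.3% of all genes tested did. In 3 of the 20, *lim2.2*, *mafa* and *mafb*, every Mut pool was above every WT pool, a share close to the 15.3% of all genes tested. *lim2.2*, of the same family as *lim2.3*, read 20, 25 and 18 in WT and 36, 37 and 45 in Mut (log2 fold change 0.88, limma adjusted p = 0.092), and *mafa* had a log2 fold change of 0.38 (limma adjusted p = 0.072).

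Marker lists of other tissues were read in the same fits. Of the rod and cone genes, 39 of 44 tested at 5 dpf and 39 of 43 tested at 8 dpf had a log2 fold change below 0, with medians of -0.38 and -0.54. By limma 19 and 21 of them had an adjusted p under 0.05 and were lower, of which 2 and 1 also passed the fold threshold. Among all genes tested, 489 of 22521 at 5 dpf and 696 of 20963 at 8 dpf were lower at that adjusted p. Both thresholds were passed by 0.546% and 0.701%. The summed values of the rod and cone genes at 8 dpf were 196290 to 219057 in WT and 147257 to 159334 in Mut. The 5 muscle markers had a median of 0.52 at 8 dpf with 0 called (sums of 585826 to 835849 in WT and 953685 to 1011251 in Mut), and the 5 exocrine pancreas markers one of -1.11, also with 0 called and with overlapping sums of 11111 to 35076 in WT and 5184 to 16088 in Mut. The part of these tissues in the crystallin differences was not tested.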

How the data were processed

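Per the labels and the study's methods, RNA was extracted from pools of 5 larvae, and stranded mRNA libraries were read as paired ends. The authors trimmed reads with Trimmomatic 0.33, aligned them to GRCz10 with STAR 2.4.0a and counted those unique to 1 gene with featureCounts 1.4.5-p1. The deposited values are a score, that is normalized counts rounded to whole numbers. The authors removed a batch effect from the 8 dpf values with edgeR 3.16.5. The values are not raw counts, so no count model was fitted. Every column of per-sample values was used.

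Values were tested as log2(value + 1) with limma 3.58.1 (R 4.3.3, trended prior), Benjamini-Hochberg adjustment over all genes, and a combined mean of at least 5. The 5 dpf model had genotype, and the 8 dpf model genotype and batch. A gene was called where the adjusted p was below 0.05 and the change was 0.9 or more on the log2 scale. On simulated data 199 of 200 changed genes were recovered at 5 dpf and 194 of 196 at 8 dpf, with 3 and 2 false calls. The simulation gave every gene the same dispersion and had no batch effect. These rates therefore need not hold for pools that vary as the crystallins do.

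Members and gene lists (lens, rods and cones, and markers of muscle, liver, exocrine pancreas, red blood cells, skin and nervous system) were chosen with earlier results of these data known. Values in every library are given for members called at 5 dpf or not called at 8 dpf, for every alpha, gamma N, S and MX gene (*crygs4* at 5 dpf only), for those nearest the fold threshold, and, within the beta, *crygm2d* and other gamma M genes, for those with the highest mean and the highest and lowest fold change. *crygm2e* was added after its values were seen. Symbols follow the study's tables. Of the 47 members, 7 have another symbol in the reference table and 5 have none; *crygm2d8* and *crygm2d9* are among the 7.

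Of the marker lists not given with the results, liver (5 genes) had medians of -0.33 at 5 dpf and -0.80 at 8 dpf with 1 gene called lower at each age. At both ages 0 genes were called by limma among red blood cell (2), skin (4) and nervous system (3) markers, with medians between -0.15 and 0.11. Exocrine pancreas (5) had 3 called lower at 5 dpf. Of all genes tested, 0.546% were called lower at 5 dpf and 0.701% at 8 dpf.

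The alternatives tried were other pseudocounts, filters and scalings, an untrended prior, a replicate block, each library left out and, at 8 dpf, no batch term or single batches.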

Additional observations from a re-analysis of the deposited data

Results flagged for a closer look

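The effect of genotype on the crystallins differed between the ages. By the t-test between the ages, 20 of 27 members had a lower log2 fold change at 8 dpf at an adjusted p under 0.05. The share among all genes was 6.15%. These 27 had been named by a source other than the transcript calls. With the members chosen by those calls the count was 33 of 43.

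For *crygm2e* every Mut pool was above every WT pool at 5 dpf and below at 8 dpf, and the log2 fold change at 8 dpf minus that at 5 dpf was -2.23. The same order of the pools was seen for *crygm5*, with a difference of -2.42, and for *si:dkey-57a22.15*, with -2.67. At 5 dpf none of the 3 passed the test, with adjusted p-values from limma of 0.26, 0.075 and 0.058. The transcript calls had chosen both of these genes, so their differences are descriptions. For *crygm7* the difference was -3.73, from a gene chosen by the 5 dpf calls whose 8 dpf groups overlapped.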

How the results depend on the processing

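The direction of the 8 dpf differences held more widely than their calls. With an untrended prior limma called 0 of the 45 members at 8 dpf, and 0 of the 30 with a source other than the 8 dpf calls, at a median log2 fold change of -1.74 and with 43 of 45 at an unadjusted p under 0.05; that prior called 0 genes in the whole 8 dpf table. At 5 dpf it called 0 members lower, as did testing without the filter on low values, and 17 members had a lower log2 fold change at 8 than at 5 dpf. With each library left out in turn, limma called 0 to 38 of the 45 members lower at 8 dpf (0 to 23 of the 30), and at 5 dpf 1 to 3 higher and 0 to 2 lower. Mut3 against WT3 alone gave medians of -0.81 over the 45 members, -0.84 over the 30 and -0.85 over the further crystallins. The log2 ratio of *crygm* to other members differed by -0.27 at 8 dpf with the mean of log2 values in place of the sum, and by -0.28 with that mean over the members not chosen by the 8 dpf calls, an alternative added after seeing the data.

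Over the 3 further crystallins tested at 8 dpf the median of -0.73 became -0.55 with a pseudocount of 5, -0.51 with a combined mean of at least 20, and -0.95 to -0.57 with each library left out. With no batch term 1 of them was called lower, where 202 of 20963 genes were.

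Of the named members not called, several changed sign with 1 library left out. The 5 dpf log2 fold change ran from -0.72 to 0.25 for *cryba1a*, from -0.28 to 0.046 for *cryba2b*, from -0.079 to 0.40 for *cryba4*, from -0.97 to 1.12 for *crybb1*, from -0.44 to 0.21 for *crybb1l2*, from -0.055 to 0.26 for *crygm2d10*, from -0.44 to 0.034 for *crygm2d15*, from -0.076 to 0.33 for *crygm2d5*, from -0.18 to 0.23 for *crygmx* and from -0.12 to 0.25 for *crygn2*. At 8 dpf that of *crygm7* ran from -0.51 to 0.23.

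The replicate numbers were not taken to pair the samples: same-numbered libraries had correlations of -0.28, -0.19 and -0.10 at 5 dpf, and at 8 dpf the third pair is the smaller batch. With a replicate block 2 members were called higher at 5 dpf (*crygm7* and *crygm5*), and 29 of 45 were called lower at 8 dpf. Among all genes the block called 111 of 22521 higher at 5 dpf and 108 of 20963 lower at 8 dpf. The study's own 5 dpf calls had named both *crygm7* and *crygm5*. The causes of these shifts were not tested. Read depth is not known from the deposited values.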

Other observations

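A further 16 identifiers carry a crystallin symbol only in the reference table. A gene that the study's calls listed under a crystallin symbol would be a member instead. The lack of calls among these 16 was therefore partly set by the choice. Of these identifiers, 11 were in the 5 dpf data and 3 in the 8 dpf data. The filter on low values left 6 at 5 dpf and all 3 at 8 dpf. By limma 0 were called at either age, and the median log2 fold change of the 3 at 8 dpf was -0.73. Among all genes tested, 0.608% were called higher and 0.546% lower at 5 dpf, and 0.205% and 0.701% at 8 dpf. At 8 dpf 2 of the 3 had an unadjusted p under 0.05, against 20.8% of all genes tested. With so few genes, neither count speaks for the class. *crygmxl1*, which lies in the gamma M run, at 8 dpf read 13, 23 and 17 in WT and 8, 8 and 9 in Mut, a log2 fold change of -0.97 (limma adjusted p = 0.13). Its groups did not overlap. *cryba1l2*, the neighbour of *crybb1l2* on GRCz12tu, read 390, 334 and 291 in WT and 181, 265 and 273 in Mut (log2 fold change -0.51, limma adjusted p = 0.17). *CRYBB3* read 19, 10 and 19 in WT and 14, 7 and 7 in Mut. For *cryba1l2* the 5 dpf values were 182, 215 and 357 in WT and 224, 194 and 272 in Mut, and the groups overlapped.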
